A study of Mus musculus with 18 samples.

Results

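GSK-J4, an inhibitor of histone demethylases, was given to embryoid bodies of a Mettl3 knockout line, and their RNA was set against that of the same knockout without the inhibitor. The members are 6 of the 18 RNA-seq libraries of the series, chosen by their labels: 3 of Mettl3 CKO embryoid bodies with 5 µM GSK-J4 (treated below) and 3 of Mettl3 CKO embryoid bodies with no agent in their title (untreated below). The 3 Mettl3 Control libraries are given only for background. All 3 groups came from C57BL/6 mouse embryonic stem cells. These were maintained with LIF and the inhibitors CHIR99021 and PD0325901 and then left for 7 days in medium without these, on ultra-low-attachment plates and without a feeder layer, to form embryoid bodies, which are floating aggregates of differentiating cells. The protocol names DMSO and GSK-J4 for the Mettl3 line and does not say on which days they were present. The sources used here do not state how Mettl3 was removed, whether the line is 1 clone, or whether replicates were separate cultures, so p-values measure only the spread between these libraries.

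METTL3 is the catalytic subunit of the complex that writes N6-methyladenosine (m6A) into mRNA, and both groups carry its knockout. GSK-J4 is a cell-permeable ester of GSK-J1, which blocks the H3K27 demethylases KDM6A (UTX) and KDM6B (JMJD3) and, less strongly, the KDM5 demethylases of H3K4. H3K27 trimethylation is written by Polycomb repressive complex 2 (PRC2) and marks silent developmental genes. Values are in CPM, counts scaled to a common library total with edgeR's TMM factors. Changes are log2 fold changes of treated against untreated, with the SE of the fit, and a gene "rose" or "fell" if its Benjamini-Hochberg adjusted p over all genes was under 0.05.

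The treated libraries differed from the untreated ones in depth and make-up before any gene was compared. They held 3395675, 8289423 and 4850897 counts, against 32540164, 17544904 and 28971340. Transcripts of the mitochondrial genome made up 2.38% ± 0.174 (SD, n = 3) of untreated and 0.174% ± 0.0666 of treated counts, with 2.46% ± 0.200 in the controls. A set of 13 genes made of satellite-like repeats took 0.0420% ± 0.0225 of untreated, 0.802% ± 0.340 of treated and 0.0403% ± 0.0159 of control counts. For each of these shares the 6 libraries did not overlap, which gives the smallest two-sided exact permutation p of 3 against 3, 0.1. Rank correlation over genes was 0.957 to 0.977 between untreated libraries, 0.796 to 0.833 between treated ones and 0.737 to 0.821 across the groups. At an equal depth of 3395675 counts, 1071 of 9316 genes at 20 CPM or more in 1 treated library had no count in another (11.5%), against 1 of 8103 in the untreated group (0.0123%). The biological coefficient of variation was 1.10 within the treated and 0.452 within the untreated group. In all the results below, the part of these library differences was not tested, and in bulk RNA fewer cells of a type and less RNA per cell cannot be told apart.

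**Figure D1:**
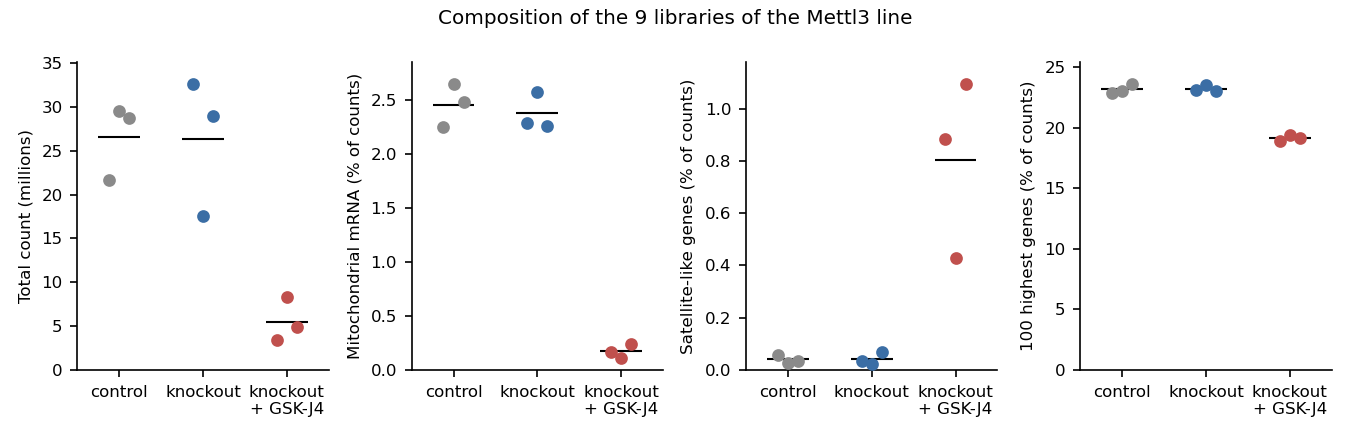
Each point is 1 library of the Mettl3 line (grey control, blue untreated knockout, red knockout with GSK-J4) and each line a mean of 3; the panels give the total count, the share of counts in mitochondrial mRNA, the share in satellite-like genes and the share in the 100 highest genes. The treated libraries are shallower, hold 0.112% to 0.244% mitochondrial mRNA against 2.26% to 2.58% untreated, and hold more satellite-like counts.

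Marker genes fixed for 10 cell types showed what the aggregates contained. The labels name embryonic stem cells differentiated for 7 days; the 11 fibroblast and mesenchyme markers together reached 15767 to 17255 CPM in untreated and 11498 to 15773 CPM in control libraries, and 1975 to 2428 CPM with GSK-J4, where 9 of the 11 were called lower. The 9 stem cell markers summed to 49.1 to 90.6 CPM untreated and 72.4 to 172 CPM treated, with Utf1 at 0 in both groups and Pou5f1 at 0 with GSK-J4. The 9 epithelial markers summed to 1.34 to 12.4 CPM untreated and 68.8 to 263 CPM treated, with Krt5 and Krt14 at 0 in the treated group, and 2 of 5 tested were called higher, Krt18 and Krt19. Endoderm markers summed to 178 to 276 CPM untreated and 9.80 to 41.1 CPM treated, with Dab2 called lower and Sox17 higher. Neural markers summed to 220.2 to 267 CPM and 81.0 to 133 CPM, with 2 of 5 tested called lower, Nes and Map2. These counts stand beside 2.00% of all genes called higher and 4.95% called lower. Of protein-coding genes at 94.6 CPM or more the shares were 5.22% and 12.2%. Adgre1, a macrophage marker, and T, the primitive streak factor, were at 0 in both groups. How far a change in cell make-up has a part in the results was not tested.

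Of 14068 genes tested, 977 were called (6.94%), 281 higher (2.00%) and 696 lower (4.95%) with GSK-J4. No called gene had overlapping libraries, but neither did 12.2% of all genes on the higher side and 24.3% on the lower. At least 4-fold changes were fitted for 117 of the rises and 469 of the falls. The called falls had a median log2 fold change of -2.73, the rises 1.70 and all genes -0.10. The balance depended on scaling: with total counts alone, 1237 genes were called, 52.4% of them higher against 28.8% of the 977, and the median of all genes moved to 0.18. With upper-quartile factors 42.0% of 1082 calls were higher, and with DESeq2 42.0% of 2478 calls. The number of calls varied with the libraries entered. Without untreated library 1, 2 or 3 the counts were 210, 129 and 253 and without treated library 1, 2 or 3 they were 1197, 1411 and 1301. The test fits 1 spread per gene to both groups, whose biological coefficients of variation were 1.10 (treated) and 0.452 (untreated). The part of this in these counts, and in calls lost below with 1 library left out, was not tested. Of the 977 calls, 112 were kept in every alternative run. Genes said below to have held "throughout" kept their call with any 1 of the 6 libraries left out. The other settings named below leave out the fit with the replicate number as a block and the test for a log2 change of at least 1. The latter kept 298 of the 977 calls, and both are given with the limits. A gene that was not called is not shown to be unchanged.

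**Figure D2:**
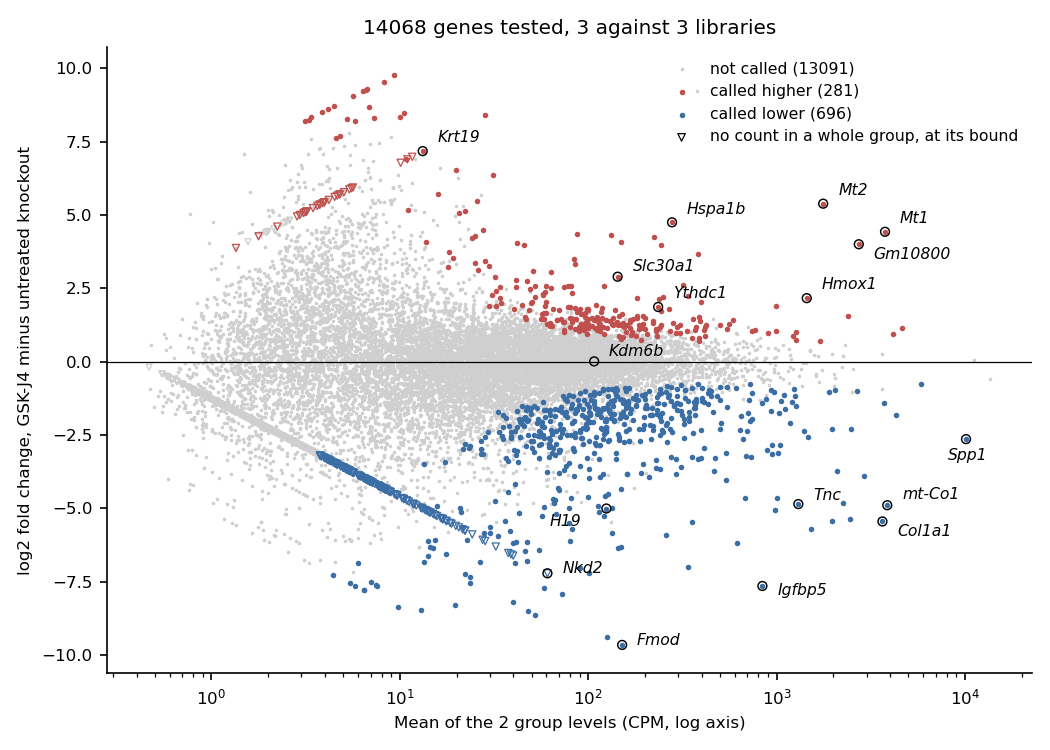
Each mark is 1 of 14068 genes, with the mean of both group levels in CPM on a log axis and the log2 fold change of treated against untreated; red and blue are the 281 higher and 696 lower calls, and triangles are genes without a count in a whole group, drawn at the bound set by 3 counts per library. Mt1, Mt2 and Gm10800 lie far above the other abundant genes, collagen and mitochondrial genes far below, and Kdm6b lies at 0.01.

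No call was made among the enzymes GSK-J4 is known to inhibit. Mettl3 itself stood at 29.0, 7.43 and 20.2 CPM untreated and 7.90, 26.7 and 12.5 CPM treated, overlapping values (log2 fold change -0.26 ± 0.78, adjusted p = 0.892). On the scale of the 9 libraries of the line it was at 19.9 to 36.4 CPM in controls and 7.29 to 27.5 CPM in the untreated knockout, also overlapping, so its gene-level count does not check the labels; the exons removed are not stated in these sources. Kdm6a was at 28.4, 46.9 and 30.2 CPM untreated and 39.8, 42.0 and 18.3 CPM treated (log2 fold change -0.08 ± 0.48). Kdm6b had 107, 84.2 and 131 CPM and 122, 124 and 77.9 CPM (0.01 ± 0.28). None of the 7 genes Kdm6a, Kdm6b, Uty and Kdm5a to Kdm5d was called, beside 6.94% of all genes, with changes from -1.11 (Uty) to 0.46 (Kdm5a). Among these 7 there were 0 at unadjusted p under 0.05, 0 by DESeq2 and 0 by limma voom with quality weights (voom below). The signs of Kdm6a, Kdm6b, Kdm5c and Kdm5d changed with some of the other settings.

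Among the writers of H3K27 methylation, Suz12, the zinc finger subunit that holds PRC2 together, rose from 37.6, 40.3 and 56.1 CPM to 82.0, 125 and 159 CPM (log2 fold change 1.45 ± 0.33, adjusted p = 0.0392). It was the 1 call among 10 PRC2 genes, beside 6.94% of all genes called (3 at unadjusted p under 0.05, 3 by DESeq2 and 3 by voom). The PRC2 median was 0.58, with 7 positive and 3 negative changes. The catalytic subunits Ezh2 (1.10 ± 0.65) and Ezh1 (0.18 ± 0.55) and the reader Eed (1.20 ± 0.32, adjusted p = 0.0618) were not called. Of 20 PRC1 genes none was called (0 at unadjusted p under 0.05, 0 by DESeq2 and 0 by voom). Ythdc1, the nuclear reader of m6A, rose from 102, 99.0 and 103 CPM to 382, 319 and 405 CPM (log2 fold change 1.86 ± 0.19, adjusted p = 0.00251), and no other of 20 m6A genes was called. Among the 20 there were 6 at unadjusted p under 0.05, 4 by DESeq2 and 3 by voom. Their median was 0.34, with 14 positive and 6 negative changes. Kdm3a, an H3K9 demethylase that responds to hypoxia, rose from 51.3, 71.2 and 74.9 CPM to 147, 185 and 156 CPM (log2 fold change 1.31 ± 0.24, adjusted p = 0.0210) as the 1 call among 17 other Jumonji genes. The PRC1, m6A and Jumonji counts, too, stand beside the 6.94% of all genes called. Ythdc1 held throughout. Calls were lost for Suz12 and Kdm3a without any 1 untreated library (Suz12 also without treated library 2 or 3), at adjusted p 0.0552 to 0.190.

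Developmental genes that Polycomb silences were called at a share near that of all genes (6.94%). None of 34 tested HOX genes was called, with a median log2 fold change of -0.19 (0.09 with total counts; 5 at unadjusted p under 0.05, 3 by DESeq2 and 0 by voom). Of 33 other regulators known as PRC2 targets 3 were called, 1 higher and 2 lower (9 at unadjusted p under 0.05, 7 by DESeq2 and 7 by voom). The median of the 33 was -0.65 (-0.38 with total counts), with 23 negative and 10 positive changes. All 50 listed regulators summed to 744 to 796 CPM untreated and 446 to 565 CPM treated. Irx3 fell from 101, 93.2 and 94.8 CPM to 5.18, 26.6 and 7.74 CPM (log2 fold change -2.84 ± 0.61, adjusted p = 0.0342). Dlx5 had 8.36, 15.8 and 4.97 CPM untreated and no count treated, a log2 fold change of -3.57 or below (adjusted p = 0.0450). Sox17, an endoderm factor, went from 0, 0 and 0.0385 CPM, which is 1 count in all, to 7.09, 2.48 and 10.2 CPM (adjusted p = 0.0399). No call held throughout: it was lost for Sox17, Irx3 and Dlx5 without any 1 untreated library (Sox17 also without treated library 1 or 3 and Irx3 also without treated library 3), at adjusted p 0.0515 to 0.235. Other settings also ended calls, those of Sox17 with no low-count filter or the fit of 9 libraries (0.0607 to 0.0933). Irx3 stood at -3.96 without treated library 2 (-2.84 with all). Sox17 had 0 counts in the untreated group outside untreated library 3.

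Genes of zinc handling gave some of the largest rises. Metallothioneins are small cysteine-rich proteins that bind zinc and copper, and the zinc-sensing factor MTF1 switches on their genes together with Slc30a1, which encodes the ZnT1 exporter at the cell surface. Mt1 (ENSMUSG00000031765.8, mm10 chr8:94179082-94180327, plus strand) went from 376, 357 and 271 CPM to 8822, 6033 and 6705 CPM. Mt2 (ENSMUSG00000031762.7, chr8:94172664-94173568) lies beside it and went from 84.2, 100.1 and 63.6 CPM to 4278, 2513 and 3556 CPM. Slc30a1 (ENSMUSG00000037434.7, chr1:191906767-191913247) went from 29.9, 34.9 and 37.1 CPM to 246, 272 and 239 CPM. The lowest treated library was above the highest untreated one for each of the 3, as for every gene called higher. Below are the 250 bases before the RefSeq gene start of each, on build GRCm38.p6 and 5′ to 3′ on the plus strand, which all 3 genes use. They are shown because these genes moved together; capitals mark the core of the metal response element that MTF1 binds, TGCACNC or TGCGCNC on either strand, and mark a match of letters only. The stretches are chr8:94178839-94179088 for Mt1, chr8:94172368-94172617 for Mt2 and chr1:191906531-191906780 for Slc30a1. RefSeq starts differ from the gene starts given above. The stretches of Mt1 and Slc30a1 therefore run past those starts, and that of Mt2 ends short of it.

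Mt1: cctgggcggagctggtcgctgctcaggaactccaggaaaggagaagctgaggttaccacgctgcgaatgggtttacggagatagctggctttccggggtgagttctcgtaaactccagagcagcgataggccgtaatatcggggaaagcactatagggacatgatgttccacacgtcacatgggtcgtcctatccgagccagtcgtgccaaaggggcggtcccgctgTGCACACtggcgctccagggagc
Mt2: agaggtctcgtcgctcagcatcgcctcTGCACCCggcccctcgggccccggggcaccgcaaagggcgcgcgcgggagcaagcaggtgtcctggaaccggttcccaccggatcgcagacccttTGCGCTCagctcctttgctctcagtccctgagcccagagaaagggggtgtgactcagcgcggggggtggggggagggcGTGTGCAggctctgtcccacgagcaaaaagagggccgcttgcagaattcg
Slc30a1: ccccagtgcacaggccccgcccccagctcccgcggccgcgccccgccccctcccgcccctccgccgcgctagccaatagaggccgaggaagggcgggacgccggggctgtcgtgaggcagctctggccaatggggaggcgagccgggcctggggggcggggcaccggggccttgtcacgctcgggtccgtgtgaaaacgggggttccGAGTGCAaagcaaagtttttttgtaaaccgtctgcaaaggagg

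In these stretches the core was found 1 time for Mt1, 3 times for Mt2 and 1 time for Slc30a1, and the counts depend on the start used. It is common: 30.8% of the 10140 promoters of tested genes that matched hold it, and 2.28% hold 3 or more. Of 11 genes of zinc handling with a promoter 5 hold it, among them Slc30a4 and Slc30a5, which were not called. Fitted log2 fold changes were 4.42 ± 0.25 for Mt1 (adjusted p = 0.000299), 5.38 ± 0.31 for Mt2 (adjusted p = 0.000299) and 2.89 ± 0.21 for Slc30a1 (adjusted p = 0.000815). With values scaled over the 9 libraries, Mt1 was at 254 to 401 CPM in the controls and 254 to 357 CPM in the untreated knockout and 5914 to 8570.0 CPM in the treated one. Mt1 and Mt2 were 2 of the 10 most abundant nuclear protein-coding genes of the treated group.

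Other zinc genes went the opposite way or were not called. Of 13 tested zinc genes 3 rose and 2 fell, beside 2.00% and 4.95% of all genes, and the median over the 13 was -0.20 (0.07 with total counts). Slc39a10, a zinc importer of the cell surface, fell from 45.3, 46.3 and 58.3 CPM to 5.72, 5.86 and 5.28 CPM (log2 fold change -3.15 ± 0.47, adjusted p = 0.0102). Slc39a1, another importer, fell from 178, 151 and 149.7 CPM to 82.3, 92.7 and 68.7 CPM (log2 fold change -0.97 ± 0.22, adjusted p = 0.0400). Mtf1 itself had a log2 fold change of 0.63 ± 0.39 and was not called. Mt1, Mt2 and Slc30a1 held throughout. Calls ended with 1 library left out for Slc39a10 and Slc39a1 without any 1 untreated library (Slc39a1 also without treated library 1 or 3), at adjusted p 0.0509 to 0.204. Calls also ended for Slc39a10 with voom (0.0603) and Slc39a1 with upper-quartile factors, total counts, no low-count filter or thinning to equal depth (0.0508 to 0.0794).

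Iron genes moved in both directions. Tfrc, the transferrin receptor that brings iron into cells, rose from 15.8, 32.1 and 32.8 CPM to 159, 150.2 and 102 CPM (log2 fold change 2.35 ± 0.37, adjusted p = 0.0123). Fth1, the heavy chain of the iron store ferritin, rose from 3151, 2961 and 2461 CPM to 6219, 5617 and 7253 CPM (log2 fold change 1.15 ± 0.19, adjusted p = 0.0138), and Ftl1, the light chain, from 3200.3, 3138 and 2224 CPM to 5304, 4779 and 6206 CPM (log2 fold change 0.93 ± 0.21, adjusted p = 0.0399). Steap3, the endosomal reductase that prepares iron for export to the cytosol, fell from 76.9, 64.6 and 63.0 CPM to 9.81, 17.9 and 12.1 CPM (log2 fold change -2.35 ± 0.40, adjusted p = 0.0162). These were the 4 calls of 15 iron genes, beside 6.94% of all genes called. Both ferritin genes have processed copies in the genome, so their counts may be shared. The iron exporter Slc40a1 was not called and had no count in treated library 1 (0, 22.6 and 16.6 CPM). All of these calls ended with 1 library left out: for Tfrc without untreated library 2 and Fth1, Ftl1 and Steap3 without any 1 untreated library (Ftl1 also without treated library 1 or 3), at adjusted p 0.0616 to 0.181. Under another setting there was no call for Steap3 with voom (0.0633).

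Antioxidant genes gave rises and falls in equal number, 3 and 3 of 24 tested, beside 2.00% and 4.95% of all genes. Hmox1, heme oxygenase, which breaks heme down and frees its iron, rose from 568, 577 and 437 CPM to 2213, 2475 and 2399 CPM (log2 fold change 2.16 ± 0.19, adjusted p = 0.00148). Slc7a11, the cystine importer for glutathione synthesis, rose from 17.1, 5.04 and 22.7 CPM to 82.6, 80.4 and 105 CPM (2.58 ± 0.55). Sqstm1, the autophagy receptor p62, rose from 953, 880.0 and 736 CPM to 1574, 1621 and 1523 CPM (0.88 ± 0.17). Against these, Nqo1, a quinone reductase often read as a sign of NRF2 activity, fell from 119, 119 and 87.3 CPM to 0, 3.16 and 0 CPM (log2 fold change -6.42 ± 1.13, adjusted p = 0.0176), and Me1, malic enzyme, from 222, 237 and 271 CPM to 69.8, 70.1 and 61.1 CPM (log2 fold change -1.86 ± 0.20, adjusted p = 0.00314). Nfe2l2, which encodes NRF2, fell from 165, 180.0 and 159 CPM to 106, 78.4 and 79.6 CPM (log2 fold change -0.93 ± 0.22, adjusted p = 0.0439). Txnrd1 (0.95 ± 0.23, adjusted p = 0.0512) and Gclc (1.23 ± 0.35, adjusted p = 0.0710) were not called. Hmox1 and Me1 held throughout. Leaving out 1 library ended those of Slc7a11, Sqstm1, Nqo1 and Nfe2l2 without any 1 untreated library (Slc7a11 also without treated library 1 or 2 and Nfe2l2 also without treated library 2 or 3), at adjusted p 0.0506 to 0.184. Other settings also ended calls, those of Nfe2l2 with RLE factors, upper-quartile factors, total counts, no low-count filter or thinning to equal depth (0.0565 to 0.101). Nqo1 stood at -5.80 without treated library 3 (-6.42 with all). Nqo1 had 0 counts in the treated group outside treated library 2.

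**Figure D3:**
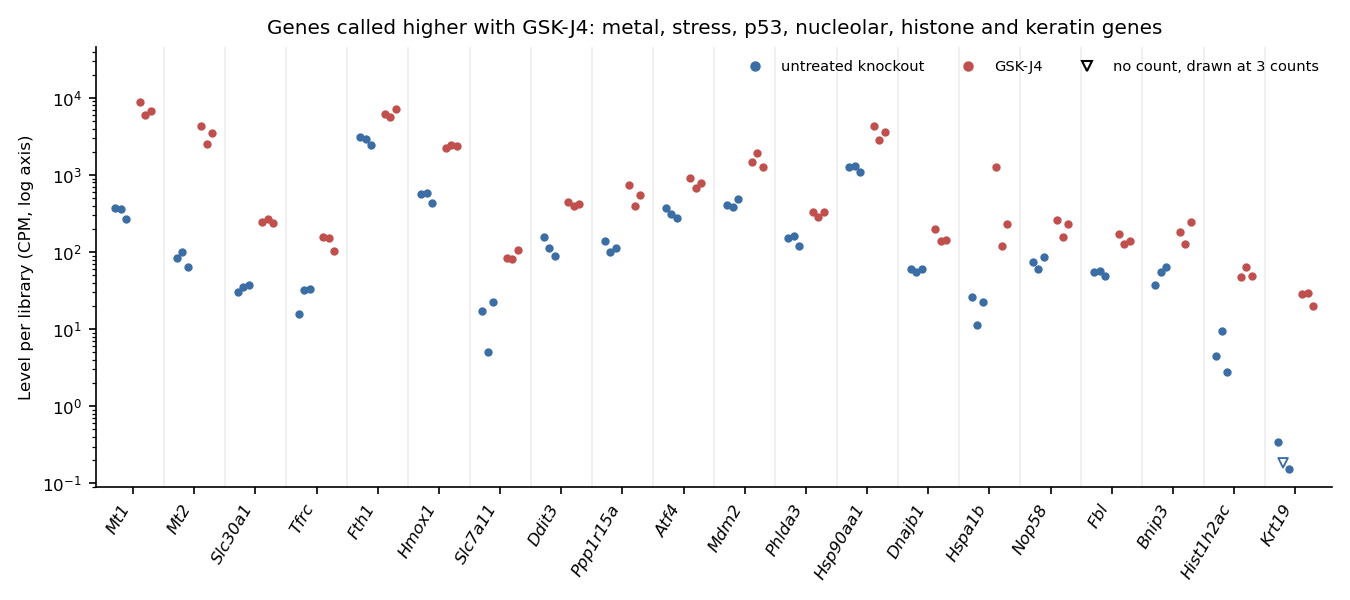
Each point is 1 library's level in CPM on a log axis, blue for the 3 untreated and red for the 3 treated libraries, for 20 genes called higher; a triangle is a library without a count, drawn at 3 counts. Treated libraries lie above untreated ones for every gene shown, as for all genes called higher. Treated library 1 stands far above the other treated libraries for Hspa1b (1259 CPM against 119 and 233).

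Part of the ATF4 program, the transcription response to amino acid shortage, endoplasmic reticulum stress and other cell stress, was higher. Of 28 tested members 7 rose and 1 fell, beside 2.00% and 4.95% of all genes, while the median was -0.08 (0.20 with total counts). Atf4 rose from 371, 314 and 280.0 CPM to 916, 669.8 and 786 CPM (log2 fold change 1.30 ± 0.20, adjusted p = 0.0118). Ddit3, the CHOP factor, rose from 158, 112 and 89.5 CPM to 446, 394 and 419 CPM (log2 fold change 1.81 ± 0.25, adjusted p = 0.00686). Ppp1r15a (GADD34), which restores translation after stress, rose from 138, 100.1 and 114 CPM to 736, 391 and 549.8 CPM (log2 fold change 2.25 ± 0.27, adjusted p = 0.00460). Atf3, Atf5, Sesn2 and Slc7a11 were the other rises, and Aldh18a1, an enzyme of proline synthesis, the fall, from 61.0, 78.1 and 59.8 CPM to 14.2, 5.41 and 1.32 CPM. Asns (-0.40 ± 0.27), Trib3 (0.12 ± 0.53) and Chac1 (-3.25 ± 1.31), target genes often used to read the pathway, were not called. Of 20 cytosolic tRNA synthetases Rars rose (1.03 ± 0.25) and Lars fell (-1.83 ± 0.37).

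Each call ended without some library: it was lost for Ppp1r15a and Ddit3 without untreated library 2, Atf4 without untreated library 2 or 3 and Sesn2, Slc7a11, Atf3, Atf5, Aldh18a1, Rars and Lars without any 1 untreated library (Sesn2 and Atf3 also without treated library 1, Slc7a11 also without treated library 1 or 2, Atf5 also without treated library 1, 2 or 3, Rars also without treated library 1 or 3 and Aldh18a1 also without treated library 2), at adjusted p 0.0506 to 0.223. Calls also ended for Atf5 with no low-count filter or the fit of 18 libraries (0.121 to 0.125) and Aldh18a1 with total counts (0.0523). Atf3 stood at 1.53 without treated library 1 (2.21 with all) and Aldh18a1 at -4.33 without treated library 1 (-3.27).

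Of 23 tested cytosolic heat shock genes 4 rose and 1 fell, beside 2.00% and 4.95% of all genes. Hsp90aa1, the inducible HSP90, rose from 1271, 1323 and 1101 CPM to 4286, 2828 and 3622 CPM (log2 fold change 1.54 ± 0.21, adjusted p = 0.00661), while the constitutive Hsp90ab1 had 3655, 3278 and 2996 CPM and 3513, 4305 and 4002 CPM and was not called (0.25 ± 0.17). Dnajb1, an HSP40 co-chaperone, rose from 60.5, 55.5 and 59.5 CPM to 201, 140.2 and 144 CPM (log2 fold change 1.47 ± 0.24, adjusted p = 0.0136). The inducible HSP70 genes Hspa1a and Hspa1b rose most and most unevenly, Hspa1b from 26.1, 11.2 and 22.4 CPM to 1259, 119 and 233 CPM (log2 fold change 4.75 ± 0.91, adjusted p = 0.0236) and Hspa1a from 14.2, 11.3 and 12.6 CPM to 647, 61.5 and 45.1 CPM. They are near-identical copies, so the split of reads between them is uncertain. The constitutive Hspa8 was not called (0.18 ± 0.19), and Hspa4, an HSP110 relative, fell (-0.85 ± 0.17). Hsph1, Bag3, Hspb1, Hspb8, Dnaja1 and Chordc1 were among the members not called. No call held throughout: it was lost for Hsp90aa1 without untreated library 2 and Dnajb1, Hspa1a, Hspa1b and Hspa4 without any 1 untreated library, at adjusted p 0.0748 to 0.181. Under another setting there was no call for Hspa4 with total counts (0.0720). Hspa1a stood at 2.00 without treated library 1 (4.30 with all) and Hspa1b at 3.07 without treated library 1 (4.75).

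Of 22 chaperone and unfolded protein response genes of the endoplasmic reticulum 0 were called higher and 3 lower. Of all genes 2.00% were called higher and 4.95% lower, and of protein-coding genes at 94.6 CPM or more 5.22% and 12.2%. Calr (calreticulin) fell from 1975, 1611 and 1588 CPM to 669.6, 811 and 837 CPM (log2 fold change -1.16 ± 0.18, adjusted p = 0.0126), Hsp90b1 (GRP94) from 1319.6, 1209 and 1376 CPM to 714, 608 and 574 CPM (log2 fold change -1.04 ± 0.17, adjusted p = 0.0142) and Pdia4, a disulfide isomerase, from 509.9, 487 and 469 CPM to 129, 275 and 171 CPM (log2 fold change -1.35 ± 0.28, adjusted p = 0.0320). Hspa5, the chaperone BiP, was at -0.61 ± 0.26 and not called. All of these calls ended with 1 library left out: for Calr without untreated library 1 or 2 and Hsp90b1 and Pdia4 without any 1 untreated library (Pdia4 also without treated library 3), at adjusted p 0.0649 to 0.151. Other settings also ended calls, those of Pdia4 with total counts (0.0507).

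Targets of p53, the damage-activated transcription factor, rose in 8 of 23 tested and fell in 0, beside 2.00% and 4.95% of all genes; the median was 0.80. Mdm2, the ubiquitin ligase that p53 induces and that removes it, rose from 403, 381 and 485 CPM to 1488, 1919.9 and 1279 CPM (log2 fold change 1.88 ± 0.22, adjusted p = 0.00370). Phlda3, an inhibitor of AKT, rose from 154, 162 and 121 CPM to 327, 281 and 327 CPM (log2 fold change 1.10 ± 0.20, adjusted p = 0.0192). The BH3-only death genes Pmaip1 (NOXA) and Bbc3 (PUMA) rose, Pmaip1 from 279, 286 and 239 CPM to 423, 586 and 669 CPM and Bbc3 from 12.7, 12.3 and 12.8 CPM to 57.8, 32.5 and 49.4 CPM (adjusted p = 0.0295 and 0.0490). Sesn2, Trp53inp1, Perp and Ei24 were the other rises. Cdkn1a, the cell cycle inhibitor p21 and the best known target, was at 528, 450.1 and 427 CPM and 683, 565 and 647 CPM and was not called (log2 fold change 0.43 ± 0.18, adjusted p = 0.189). Among 7 INK4 and KIP genes Cdkn2a, the locus of p16 and p19ARF, fell from 146, 134 and 123 CPM to 25.3, 35.3 and 38.3 CPM (log2 fold change -2.03 ± 0.27, adjusted p = 0.00614); its neighbour Cdkn2b was not called (-0.89 ± 0.26, adjusted p = 0.0736). Each call ended without some library: it was lost for Mdm2 and Cdkn2a without untreated library 2 and Phlda3, Sesn2, Pmaip1, Trp53inp1, Perp, Ei24 and Bbc3 without any 1 untreated library (Sesn2 and Bbc3 also without treated library 1, Trp53inp1 and Perp also without treated library 1 or 2, Ei24 also without treated library 1, 2 or 3 and Pmaip1 also without treated library 2 or 3), at adjusted p 0.0505 to 0.221. Calls also ended for Ei24 with no low-count filter (0.0713) and Bbc3 with no low-count filter or thinning to equal depth (0.0508 to 0.0627).

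Of 24 immediate early genes, which respond to signals within minutes, 5 rose and 0 fell, beside 2.00% and 4.95% of all genes. Junb went from 87.8, 55.0 and 77.2 CPM to 321, 194 and 171 CPM (log2 fold change 1.64 ± 0.31, adjusted p = 0.0224), Jun from 174, 165 and 196 CPM to 379.6, 292 and 423 CPM (log2 fold change 1.03 ± 0.21, adjusted p = 0.0268) and Klf6 from 143, 153 and 188 CPM to 557, 264 and 393 CPM (1.33 ± 0.29); Ier5 and Atf3 were the others. Fos (60.8, 5.08 and 0 CPM treated) and Egr1 (228, 99.5 and 22.5 CPM treated) were not called and spread widely between the treated libraries. Ccl2, a chemokine that draws monocytes, rose from 88.2, 45.7 and 65.2 CPM to 241, 202 and 446 CPM (log2 fold change 2.16 ± 0.37, adjusted p = 0.0168) as the 1 call of 13 chemokine and cytokine genes. Cxcl1 went from 0.447, 0 and 3.12 CPM to 2196, 27.2 and 27.4 CPM, led by treated library 1, and missed the threshold (adjusted p = 0.0523). None of 14 interferon response genes was called (1 at unadjusted p under 0.05, 1 by DESeq2 and 1 by voom). No call held throughout: it was lost for Ccl2 without untreated library 2 or 3 and Junb, Jun, Klf6, Ier5 and Atf3 without any 1 untreated library (Jun, Klf6, Ier5 and Atf3 also without treated library 1), at adjusted p 0.0507 to 0.192. Atf3 stood at 1.53 without treated library 1 (2.21 with all).

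Of 29 genes of glycolysis and the hypoxia response 5 rose and 0 fell, beside 2.00% and 4.95% of all genes. Slc2a1, the glucose transporter GLUT1, rose from 137, 125 and 118 CPM to 278, 260.4 and 280.4 CPM (log2 fold change 1.11 ± 0.18, adjusted p = 0.0136) and Bnip3, a mitophagy receptor that hypoxia induces, from 37.3, 54.8 and 63.7 CPM to 183, 128 and 247 CPM (log2 fold change 1.84 ± 0.33, adjusted p = 0.0179). Eno1 and Tpi1, glycolytic enzymes, rose by 0.97 ± 0.17 and 1.31 ± 0.26 on the log2 scale, and Kdm3a as given above. Vegfa was not called (0.32 ± 0.27). All of these calls ended with 1 library left out: for Slc2a1, Eno1, Bnip3, Kdm3a and Tpi1 without any 1 untreated library, at adjusted p 0.0538 to 0.155.

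Genes that build ribosomes rose in 5 of 25 tested, with 0 lower, beside 2.00% and 4.95% of all genes. Fbl (fibrillarin) and Nop58, core proteins of the box C/D particles that methylate ribosomal RNA, went from 54.9, 56.8 and 49.5 CPM to 173, 126 and 138 CPM (log2 fold change 1.44 ± 0.24, adjusted p = 0.0138) and from 75.1, 60.5 and 87.3 CPM to 264, 157 and 228 CPM (log2 fold change 1.54 ± 0.27, adjusted p = 0.0168). Nhp2 (1.50 ± 0.27), Rrp9 (1.79 ± 0.34) and Heatr1 (1.21 ± 0.28) were the others. Of the proteins of the finished ribosome, 0 of 79 cytosolic ribosomal protein genes were called in either direction, with a median of -0.24 (0.04 with total counts; 12 at unadjusted p under 0.05, 5 by DESeq2 and 5 by voom), and 1 of 77 mitochondrial ones, Mrpl18 (1.28 ± 0.25). None of 36 proteasome genes was called (9 at unadjusted p under 0.05, 4 by DESeq2 and 1 by voom). Each call ended without some library: it was lost for Fbl, Nop58, Nhp2, Rrp9, Heatr1 and Mrpl18 without any 1 untreated library (Heatr1 also without treated library 1 or 2 and Mrpl18 also without treated library 2), at adjusted p 0.0511 to 0.211.

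Histone genes of the replication-dependent class rose in 7 of 33 tested and fell in 0, beside 2.00% and 4.95% of all genes. Of 67 such genes in the files 33 passed the low-count filter, and members near 0 untreated could pass only through the treated libraries. Hist1h4b, with 1 untreated count in all, is 1 of these. The number of rises and the median of 2.48 over the 33 therefore lean towards the higher side. Over all 67 genes the summed level was 398 to 516 CPM untreated and 1236 to 1412 CPM treated. Their mRNAs normally end in a stem-loop without a poly(A) tail, and these libraries were made from poly(A)-selected RNA; the part of this in the result was not tested. Hist1h2ac rose from 4.54, 9.52 and 2.81 CPM to 47.7, 64.6 and 49.4 CPM (log2 fold change 3.26 ± 0.60, adjusted p = 0.0205), and Hist1h1c, a linker histone, from 255, 242 and 194 CPM to 386, 626 and 538 CPM (log2 fold change 1.17 ± 0.23, adjusted p = 0.0267). The H4 genes Hist1h4b, Hist1h4c, Hist1h4d, Hist2h4 and Hist4h4 were the other 5; they encode the same protein, and reads may be shared between them. Hist1h4c went from 0.0688, 0.246 and 0.924 CPM to 42.0, 17.0 and 58.9 CPM. Among other cell cycle genes the counts were near the 6.94% of all genes: 0 of 18 mitosis genes, of which 14 had a positive log2 fold change (median 1.22; 1 at unadjusted p under 0.05, 1 by DESeq2 and 0 by voom) and 1 of 28 replication genes, Mcm7, a subunit of the replicative helicase (log2 fold change 1.49 ± 0.31, adjusted p = 0.0295). No call held throughout: it was lost for Hist1h4c without untreated library 1 or 2, Hist1h4d without untreated library 1 or 3 and Hist1h4b, Hist1h2ac, Hist2h4, Hist1h1c, Hist4h4 and Mcm7 without any 1 untreated library (Hist4h4 and Mcm7 also without treated library 1 or 2 and Hist1h1c also without treated library 2), at adjusted p 0.0558 to 0.218. Under another setting there was no call for Hist4h4 with no low-count filter (0.0555). Hist1h4c stood at 7.93 without untreated library 3 (6.53 with all), Hist2h4 at 5.66 without untreated library 2 (5.06) and Hist1h4d at 4.31 without untreated library 2 (3.43). Hist1h4b had 0 counts in the untreated group outside untreated library 1.

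Extracellular matrix genes fell in large numbers. Col1a1, Col1a2, Spp1, Sparc, Bgn and Thbs1 were among the 10 most abundant nuclear protein-coding genes of the untreated group. Of 11 fibrillar and type VI collagen genes 9 fell and 0 rose, beside 4.95% and 2.00% of all genes, with a median log2 fold change of -5.45. Their summed level was 16491 to 20226 CPM untreated and 941 to 1404 CPM treated. Col1a1 (ENSMUSG00000001506.10, chr11:94936224-94953042) and Col1a2 form type I collagen, the main fibre of bone and skin. Col1a1 fell from 7152, 6417 and 7803 CPM to 252, 107 and 132 CPM (log2 fold change -5.45 ± 0.38, adjusted p = 0.000693). Col1a2 fell from 3541, 3698 and 4325 CPM to 87.5, 137 and 40.2 CPM (log2 fold change -5.45 ± 0.46, adjusted p = 0.00148). For both genes every treated library was far below every untreated one, and no called gene had overlapping libraries. Col3a1, the type III chain, fell from 1111, 971 and 1576 CPM to 43.6, 1.80 and 7.55 CPM, with treated library 1 the highest of its group (log2 fold change -6.18 ± 1.05, adjusted p = 0.0160). Col2a1, the cartilage collagen, had 134, 422 and 195 CPM untreated and counts in 1 treated library only (1.64, 0 and 0 CPM).

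Col6a3, Col5a1, Col5a2, Col6a1 and Col6a2 were the other falls, between -1.35 (Col5a2) and -7.01 (Col6a2), and Col5a3 (-1.37 ± 0.38, adjusted p = 0.0674) was not called. Col1a1, Col1a2, Col6a3, Col2a1 and Col5a1 held throughout. Calls were lost for Col3a1 and Col6a2 without untreated library 1 or 2 and Col5a2 and Col6a1 without any 1 untreated library (Col6a1 also without treated library 2), at adjusted p 0.0510 to 0.120. Col6a3 stood at -5.25 without treated library 2 (-4.66 with all), Col2a1 at -8.71 without untreated library 2 (-9.38), Col2a1 at -8.56 without treated library 2 (-9.38), Col3a1 at -8.18 without treated library 1 (-6.18) and Col6a1 at -6.38 without treated library 3 (-5.46). Col2a1 had 0 counts in the treated group outside treated library 1 and Col6a2 had 1 count in the treated group outside treated library 2.

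Basement membrane genes, which form the sheet under epithelia and around vessels, fell in 8 of 17 and rose in 0. Of all genes 4.95% fell and 2.00% rose. The list's median was -2.14 (-2.01 with genes lacking counts at their bound). Col4a1 and Col4a2, the ubiquitous type IV collagen pair, fell from 2501, 2387 and 2603 CPM to 479, 401 and 388 CPM (log2 fold change -2.56 ± 0.18, adjusted p = 0.000693) and from 1719, 1423 and 1926 CPM to 212, 130.5 and 224 CPM (log2 fold change -3.16 ± 0.27, adjusted p = 0.00148). Lamb2 and Lama4, laminin chains, fell (log2 fold change -2.14 ± 0.22 and -7.91 ± 0.91), as did Col18a1, the source of endostatin (-3.62 ± 0.34). Hspg2 (perlecan), Col4a5 and Col15a1 were the remaining falls. Col4a1, Col4a2, Col18a1, Lamb2 and Lama4 held throughout. Calls ended with 1 library left out for Hspg2, Col4a5 and Col15a1 without any 1 untreated library (Col4a5 also without treated library 1, Hspg2 also without treated library 1 or 3 and Col15a1 also without treated library 2), at adjusted p 0.0623 to 0.226. Other settings also ended calls, those of Hspg2 and Col4a5 with total counts (0.0513 to 0.0524) and Col15a1 with RLE factors, upper-quartile factors, total counts or leaving out mitochondrial, satellite-like and rRNA-overlapping genes (0.0503 to 0.0546). Lama4 stood at -7.32 without treated library 3 (-7.91 with all), Hspg2 at -2.40 without treated library 2 (-1.76), Col4a5 at -4.26 without treated library 2 (-3.42) and Col15a1 at -5.48 without treated library 3 (-4.89). Lama4 had 0 counts in the treated group outside treated library 2.

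Enzymes and chaperones that fold, trim and crosslink collagen fell in 11 of 20, with 0 higher (median -2.15). Of all genes 4.95% fell and 2.00% rose. Serpinh1 (HSP47), the collagen chaperone of the endoplasmic reticulum, fell from 1306, 1042 and 1133 CPM to 292, 342 and 229 CPM (log2 fold change -2.01 ± 0.21, adjusted p = 0.00295). Pcolce, which speeds the trimming of procollagen, fell from 388, 368 and 304 CPM to 13.4, 18.8 and 43.8 CPM (log2 fold change -3.80 ± 0.45, adjusted p = 0.00405), and P3h1, a prolyl 3-hydroxylase, from 301, 232 and 287 CPM to 36.5, 56.2 and 74.0 CPM (log2 fold change -2.30 ± 0.29, adjusted p = 0.00539). P4hb, Loxl3, Plod1, Crtap, P3h3, Bmp1 and Plod3 also fell, as did Lox, the crosslinking lysyl oxidase (-1.55 ± 0.27). Serpinh1, Pcolce and P3h1 held throughout. Leaving out 1 library ended those of P4hb and Loxl3 without untreated library 2, Plod1 and Crtap without untreated library 1 or 2, Lox without untreated library 2 or 3 and P3h3, Bmp1 and Plod3 without any 1 untreated library (Bmp1 and Plod3 also without treated library 1 or 3), at adjusted p 0.0518 to 0.200. Calls also ended for Bmp1 with upper-quartile factors or total counts (0.0547 to 0.0773) and Plod3 with RLE factors, upper-quartile factors or total counts (0.0540 to 0.0864). Pcolce stood at -4.41 without treated library 3 (-3.80 with all) and Loxl3 at -4.57 without treated library 2 (-3.68).

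Adhesive and matricellular proteins fell in 10 of 18, with 0 higher (median -2.93), beside 4.95% and 2.00% of all genes. Spp1 (osteopontin), the most abundant nuclear protein-coding gene of the untreated group, fell from 17351, 18141 and 16864 CPM to 2696, 3585 and 2106 CPM (log2 fold change -2.64 ± 0.24, adjusted p = 0.00162). Tnc (tenascin C) fell from 2280.2, 2394 and 2887 CPM to 71.7, 114 and 75.1 CPM (log2 fold change -4.86 ± 0.27, adjusted p = 0.000299), and Sparc (osteonectin) from 4176, 3892 and 3541 CPM to 429, 269 and 186 CPM (log2 fold change -3.72 ± 0.33, adjusted p = 0.00157). Fn1 (fibronectin), the next most abundant, was at 14631, 15594 and 18873 CPM untreated and 7493, 16206 and 8572 CPM treated; treated library 2 overlapped the untreated ones and the gene was not called (log2 fold change -0.61 ± 0.31, adjusted p = 0.287). Thbs1, Thbs2, Fbn1, Fbln1, Fbln2, Mfap2 and Mfap4 were the other falls. Tnc, Sparc and Spp1 held throughout. Calls were lost for Fbn1 without untreated library 2 and Fbln2, Thbs1, Fbln1, Mfap4, Thbs2 and Mfap2 without any 1 untreated library (Thbs2 also without treated library 2), at adjusted p 0.0524 to 0.197. Fbln1 stood at -5.88 without treated library 2 (-5.17 with all), Fbln1 at -4.56 without treated library 3 (-5.17), Thbs2 at -4.46 without treated library 1 (-3.12) and Mfap2 at -5.21 without treated library 3 (-5.85). Mfap2 had 0 counts in the treated group outside treated library 2.

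Small leucine-rich proteoglycans, which coat collagen fibrils, fell in 6 of 7 tested, the highest share among the 43 lists, beside 4.95% of all genes. Fmod (fibromodulin) had 349, 264 and 293 CPM untreated and counts in 1 treated library (1.64, 0 and 0 CPM; adjusted p = 0.00192). Aspn (asporin) had 66.6, 70.3 and 96.6 CPM untreated and no treated count, a log2 fold change of -6.57 or below (adjusted p = 0.00203). Bgn (biglycan) fell from 4132, 4055 and 4092 CPM to 430.3, 1233 and 858 CPM (log2 fold change -2.28 ± 0.36, adjusted p = 0.0117). Prelp, Lum and Ogn were at 5.74 to 41.3 CPM untreated and at 0 in 8 of their 9 treated values; Dcn (decorin) was not called (26.2, 0 and 4.72 CPM treated, adjusted p = 0.100). The list's median was -4.74 with genes lacking counts at their bound. Fmod and Aspn held throughout. Calls ended with 1 library left out for Bgn without untreated library 2 and Prelp, Lum and Ogn without any 1 untreated library (Ogn also without treated library 2), at adjusted p 0.0502 to 0.218. Fmod stood at -8.83 without treated library 2 (-9.66 with all) and Lum at -5.70 without treated library 3 (-6.34). Fmod had 0 counts in the treated group outside treated library 1 and Lum had 0 counts in the treated group outside treated library 2.

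Proteases that cut matrix and their inhibitors fell in 8 of 14, with 0 higher, beside 4.95% and 2.00% of all genes. Mmp2 (gelatinase A) fell from 1912, 1755 and 1835 CPM to 149.9, 378 and 242 CPM (log2 fold change -2.83 ± 0.33, adjusted p = 0.00397) and Mmp14, its activator at the membrane, from 1744, 1508 and 1745 CPM to 99.2, 325 and 278 CPM (log2 fold change -2.83 ± 0.41, adjusted p = 0.00887). Timp2 fell from 2450.2, 2312 and 2282 CPM to 412, 432 and 517 CPM (log2 fold change -2.37 ± 0.18, adjusted p = 0.000842) and Timp3 from 449, 411 and 499 CPM to 88.8, 109 and 81.9 CPM (log2 fold change -2.28 ± 0.20, adjusted p = 0.00162). Timp1, Mmp11, Mmp19 and Mmp23 were the other falls. Timp2, Timp3 and Mmp2 held throughout. Leaving out 1 library ended those of Mmp14 without untreated library 2, Timp1 without untreated library 1 or 2 and Mmp11, Mmp19 and Mmp23 without any 1 untreated library (Mmp11 also without treated library 1), at adjusted p 0.0573 to 0.183. Mmp11 stood at -3.31 without treated library 3 (-2.60 with all), Mmp19 at -5.79 without treated library 2 (-6.44) and Mmp23 at -5.67 without treated library 3 (-6.31). Mmp19 had 0 counts in the treated group outside treated library 1 and Mmp23 had 0 counts in the treated group outside treated library 2. Contractile genes of smooth muscle and myofibroblasts fell in 2 of 15, beside 4.95% of all genes. They were Actn1 (log2 fold change -1.26 ± 0.18, adjusted p = 0.00805) and Myl9, the latter without a treated count. Acta2 was not called (-1.19 ± 0.37, adjusted p = 0.0844). All of these calls ended with 1 library left out: for Actn1 without untreated library 1 or 2 and Myl9 without any 1 untreated library, at adjusted p 0.0520 to 0.225.

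**Figure D4:**
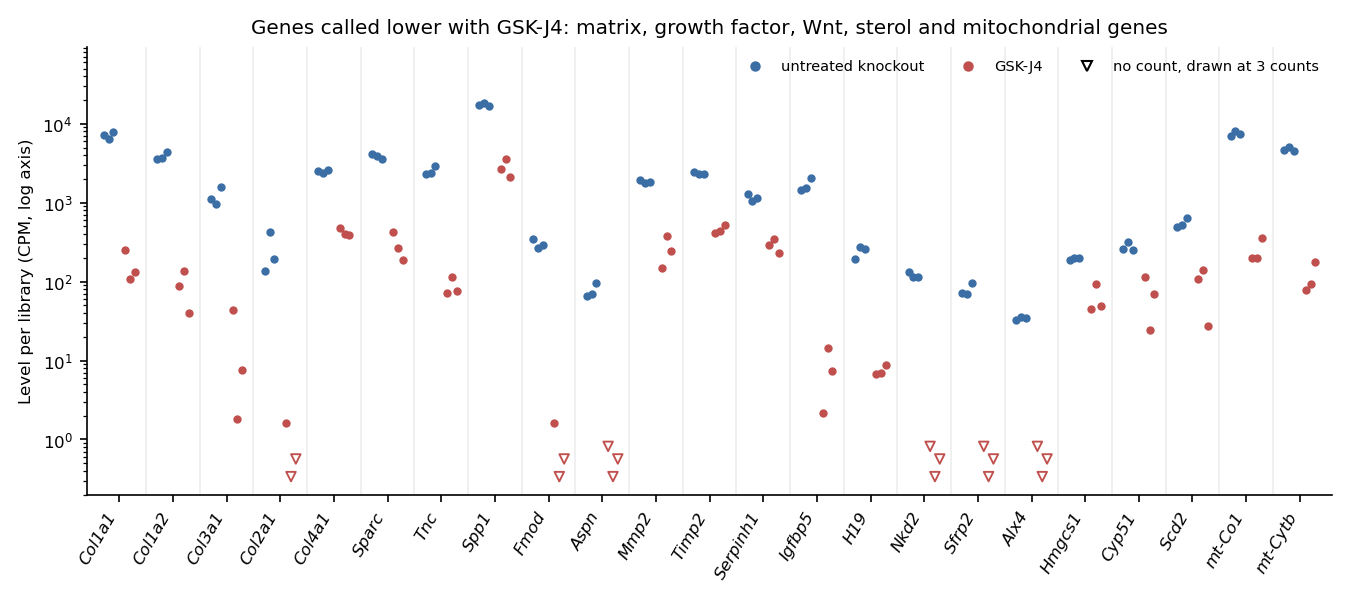
Each point is 1 library's level in CPM on a log axis, blue for the 3 untreated and red for the 3 treated libraries, for 23 genes called lower; a triangle is a library without a count, drawn at 3 counts. The groups are apart for every gene shown, as for all called genes, and Aspn, Nkd2, Sfrp2 and Alx4 have no count in any treated library.

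Of 21 mesenchyme and neural crest transcription factors 5 fell and 0 rose, beside 4.95% and 2.00% of all genes, with a median of -1.10 (genes lacking counts at their bound). Prrx1, a homeodomain factor of limb and craniofacial mesenchyme, fell from 365, 392 and 469 CPM to 76.8, 35.6 and 106 CPM (log2 fold change -2.49 ± 0.38, adjusted p = 0.0111), and Prrx2, its relative, from 151, 90.7 and 94.8 CPM to 10.9, 5.75 and 18.9 CPM (log2 fold change -3.25 ± 0.50, adjusted p = 0.0111). Alx4, of the same mesenchyme, had 32.2, 35.3 and 34.1 CPM untreated and no treated count, a log2 fold change of -5.37 or below (adjusted p = 0.00715). Sox10, a neural crest factor, also had none, and Snai2 (SLUG) fell (-1.32 ± 0.32). Twist1 was not called (-0.80 ± 0.46). Each call ended without some library: it was lost for Prrx1 without untreated library 2, Prrx2 without untreated library 1 or 2 and Alx4, Sox10 and Snai2 without any 1 untreated library (Snai2 also without treated library 1), at adjusted p 0.0525 to 0.181. Under another setting there was no call for Snai2 with RLE factors, upper-quartile factors or total counts (0.0616 to 0.0803).

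Genes of Wnt feedback included some with no treated count. Nkd2 (ENSMUSG00000021567.15, chr13:73818534-73847631, minus strand), an inhibitor that acts on Dishevelled, had 133, 115 and 116 CPM untreated and no count in any treated library, a log2 fold change of -7.21 or below (adjusted p = 0.000873). Sfrp2, a secreted Wnt antagonist, went from 72.4, 70.3 and 97.2 CPM to none, a log2 fold change of -6.61 or below (adjusted p = 0.00201). Tcf7, a nuclear effector, went from 12.7, 14.9 and 11.3 CPM to none, and Ccnd1 (cyclin D1) fell from 206, 173 and 200.0 CPM to 34.1, 77.0 and 77.2 CPM (log2 fold change -1.62 ± 0.33, adjusted p = 0.0295). These were 4 of 15 tested, with 0 higher, beside 4.95% lower and 2.00% higher of all genes. Nkd2 and Sfrp2 held throughout. Calls were lost for Ccnd1 and Tcf7 without any 1 untreated library, at adjusted p 0.114 to 0.176.

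In the insulin-like growth factor axis 5 of 15 genes fell and 0 rose, beside 4.95% and 2.00% of all genes. Igfbp5, a binding protein of bone and mesenchyme, fell from 1449, 1527 and 2041 CPM to 2.18, 14.2 and 7.36 CPM (log2 fold change -7.65 ± 0.62, adjusted p = 0.00119). Igfbp4 fell from 323, 314 and 219 CPM to 14.7, 23.2 and 3.77 CPM (log2 fold change -4.34 ± 0.59, adjusted p = 0.00689) and Igfbp7 from 1282, 1122 and 1031 CPM to 225, 131 and 203 CPM (log2 fold change -2.62 ± 0.25, adjusted p = 0.00201). Igf1 had 25.8, 28.0 and 36.4 CPM untreated and no treated count (adjusted p = 0.00980). H19, the imprinted noncoding RNA beside Igf2, fell from 194, 274 and 258 CPM to 6.81, 6.88 and 8.87 CPM (log2 fold change -5.01 ± 0.28, adjusted p = 0.000299), while Igf2 was low in both groups and not called (1.47 ± 1.17). H19, Igfbp5 and Igfbp7 held throughout. Calls ended with 1 library left out for Igfbp4 without untreated library 2 and Igf1 without any 1 untreated library, at adjusted p 0.0577 to 0.0936. Igfbp5 stood at -8.47 without treated library 2 (-7.65 with all) and Igfbp4 at -5.08 without treated library 2 (-4.34).

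Of 22 cholesterol genes 9 fell and 0 rose, beside 4.95% and 2.00% of all genes, and the median was -1.59; SREBP2 drives most of them. Hmgcs1, which makes HMG-CoA early in the pathway, fell from 188, 201 and 199 CPM to 45.5, 93.0 and 49.4 CPM (log2 fold change -1.64 ± 0.31, adjusted p = 0.0223). Cyp51, the lanosterol demethylase, fell from 258, 315 and 251 CPM to 113, 24.7 and 69.2 CPM (adjusted p = 0.0486). Lss, which closes the rings of lanosterol, fell from 73.0, 68.9 and 70.1 CPM to 20.4, 20.9 and 31.9 CPM (adjusted p = 0.0387). Acat2, Sc5d and Hsd17b7 also fell. Of 13 fatty acid genes 3 fell, Me1 as above and the desaturases Scd1 and Scd2, which put the double bond into stearate; Scd2 went from 497, 528 and 639 CPM to 108, 139.6 and 27.2 CPM (log2 fold change -2.60 ± 0.52, adjusted p = 0.0274). Me1 held throughout. Leaving out 1 library ended those of Acat2, Hmgcs1, Sc5d, Lss, Hsd17b7, Cyp51, Scd1 and Scd2 without any 1 untreated library (Scd2 also without treated library 1, Hsd17b7 also without treated library 2 and Cyp51 also without treated library 3), at adjusted p 0.0549 to 0.201. Other settings also ended calls, those of Acat2 and Sc5d with voom (0.0601 to 0.0871), Lss and Hsd17b7 with voom, upper-quartile factors or total counts (0.0532 to 0.0963) and Cyp51 with RLE factors, upper-quartile factors or total counts (0.0544 to 0.0633). Cyp51 stood at -2.63 without treated library 1.

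The mitochondrial genome encodes 13 subunits of the respiratory chain. Its transcripts fell in 7 of 12 tested and rose in 1, beside 4.95% and 2.00% of all genes. Their summed level was 25234 to 27773 CPM untreated and 1043 to 2235 CPM treated. mt-Co1 fell from 6937, 8074 and 7429 CPM to 198, 199 and 358 CPM (log2 fold change -4.89 ± 0.31, adjusted p = 0.000478) and mt-Cytb from 4647, 5109.6 and 4549.8 CPM to 78.2, 92.0 and 178 CPM (log2 fold change -5.36 ± 0.37, adjusted p = 0.000693). mt-Nd1, mt-Nd2, mt-Nd4, mt-Nd5 and mt-Co2 fell too, with log2 fold changes between -5.06 (mt-Nd4) and -3.90 (mt-Nd5). mt-Nd6, the 1 protein gene on the opposite strand, rose from 199, 158 and 242 CPM to 699.8, 452 and 586 CPM (log2 fold change 1.54 ± 0.24, adjusted p = 0.0125). How strand was handled in counting is not stated in these sources, so mt-Nd6 reads and reads of the strand opposite it cannot be told apart; mitochondrial genes also have nuclear copies that can take part of their reads. In controls mt-Co1 was at 6803 to 7722 CPM and mt-Nd6 at 208 to 245 CPM on the scale of 9 libraries. mt-Co1, mt-Cytb, mt-Nd4, mt-Nd2, mt-Nd1, mt-Nd5 and mt-Co2 held throughout. Calls were lost for mt-Nd6 without untreated library 1 or 2, at adjusted p 0.0731 to 0.102. mt-Nd4 stood at -5.89 without treated library 3 (-5.06 with all) and mt-Nd1 at -5.55 without treated library 3 (-4.84). Of the nuclear genes of the same chain 0 of 74 were called in either direction (12 at unadjusted p under 0.05, 5 by DESeq2 and 1 by voom), with a median of 0.06.

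Of 26 lysosome and autophagy genes 4 fell and 1 rose, beside 4.95% and 2.00% of all genes. Of protein-coding genes at 94.6 CPM or more 12.2% fell and 5.22% rose. Ctsb (cathepsin B) fell from 2800.1, 2609.8 and 2625 CPM to 1239, 1479 and 1433 CPM (log2 fold change -0.95 ± 0.16, adjusted p = 0.0166); Ctsz and Wipi1 also fell, and Sqstm1 was the rise. Serping1, the C1 inhibitor, was the 1 call of 9 complement genes, from 53.3, 34.0 and 47.9 CPM to 0, 1.69 and 0 CPM (adjusted p = 0.0341). Calls were lost with 1 library left out for Ctsb, Ctsz, Wipi1 and Serping1 without any 1 untreated library (Ctsz also without treated library 1), at adjusted p 0.0501 to 0.190. Calls also ended for Ctsz with upper-quartile factors or total counts (0.0603 to 0.0787) and Wipi1 with voom or total counts (0.0543 to 0.0625). Serping1 stood at -5.44 without treated library 3 (-6.09 with all). Serping1 had 0 counts in the treated group outside treated library 2.

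**Figure D5:**
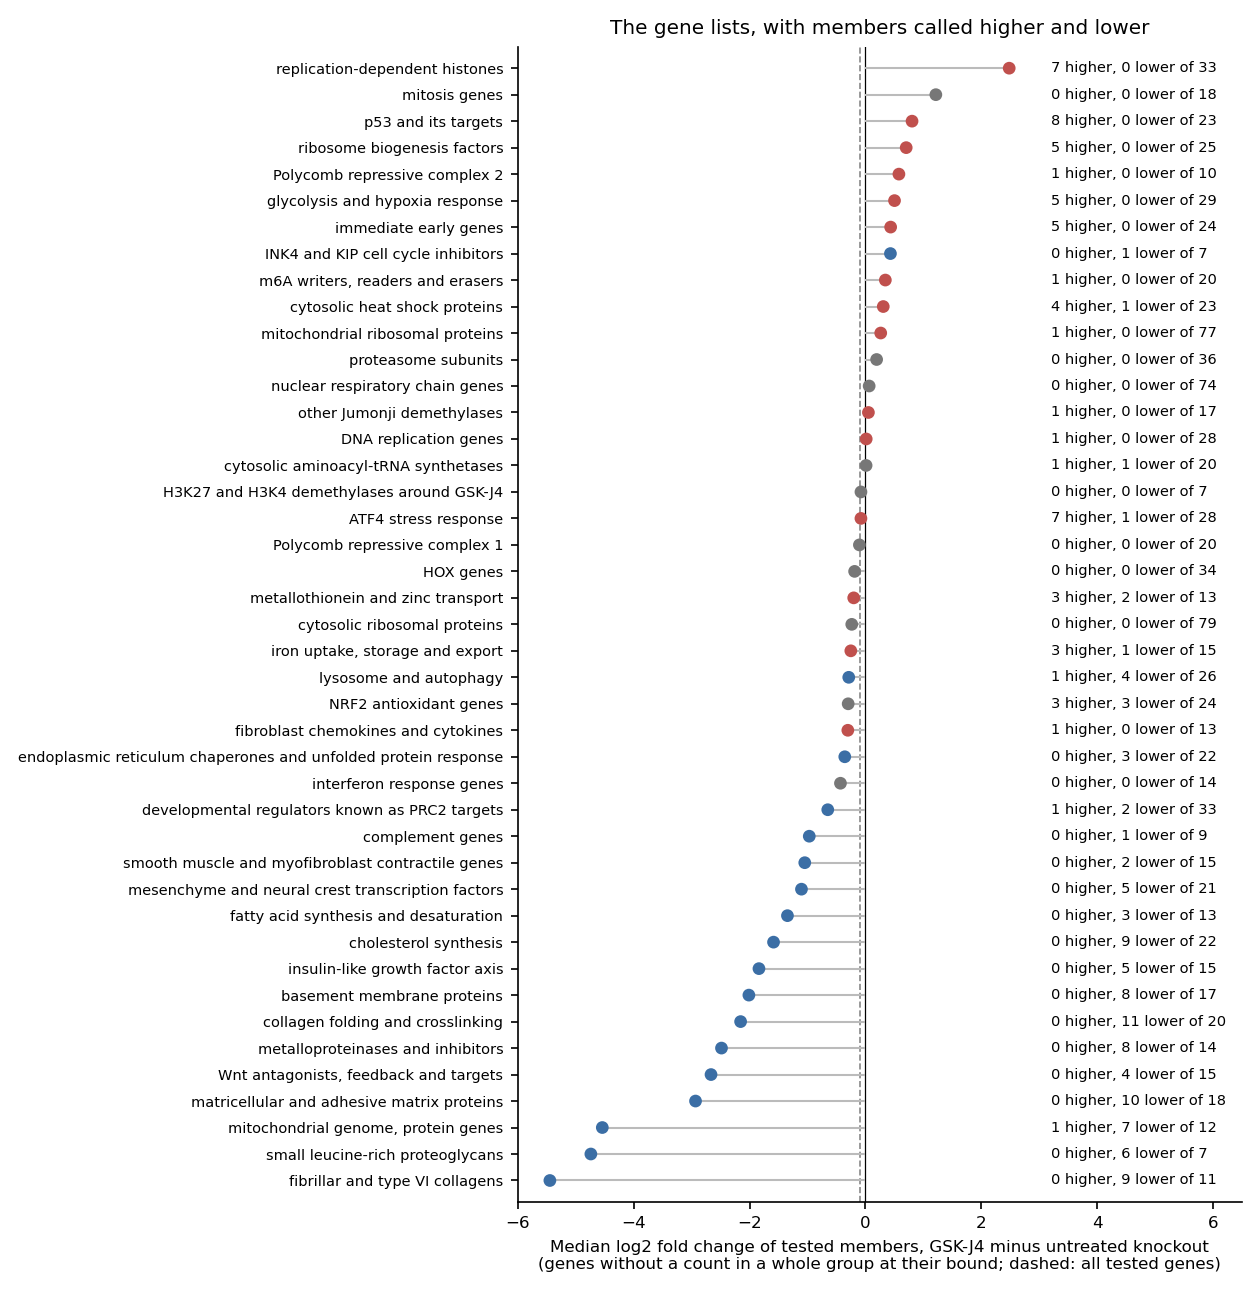
Each row is 1 of 43 gene lists, placed at the median log2 fold change of its tested members, with genes lacking counts in a whole group at their bound; red rows have more members called higher, blue rows more called lower, grey rows as many of each, and the numbers give the calls of members tested. Collagens (0 higher and 9 lower of 11) and proteoglycans lie at one end and replication-dependent histones (7 higher and 0 lower of 33) at the other.

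Some genes of the untreated libraries had no count with GSK-J4. Of 8437 protein-coding genes at 10 CPM or more in all 3 untreated libraries, 78 had no count in any treated one, and of 6516 at that level in all 3 treated libraries 0 had none in the untreated. The treated libraries were shallower, so the 78 and the 0 are not a like comparison. At equal depth 11.5% of genes at 20 CPM or more in 1 treated library had no count in another, against 0.0123% untreated. Among the 977 calls 168 falls and 28 rises had no count in 1 group. The 9 most abundant of these falls among the protein-coding genes that were tested were Nkd2, Sfrp2, Aspn, Eml1, Lrrc15, Npy, C1qtnf6, Plekhg1 and Spon1, all with no treated count, and Selp, Bace2, Gpm6b, Arnt2, Tmem200a and Fibin were further falls to no treated count. Nkd2, Sfrp2, Aspn, Eml1, Lrrc15, Npy and C1qtnf6 held throughout. Calls ended with 1 library left out for Plekhg1, Selp, Bace2 and Gpm6b without untreated library 2 and Spon1, Arnt2, Tmem200a and Fibin without untreated library 1 or 2, at adjusted p 0.0503 to 0.0785. Lrrc15, a membrane protein of activated fibroblasts, had 71.9, 62.8 and 59.1 CPM untreated (adjusted p = 0.00255), and Npy, the peptide neuropeptide Y, 60.7, 58.9 and 50.6 CPM (adjusted p = 0.00326). Lyz2 (lysozyme of macrophages) had 0.378, 82.0 and 58.2 CPM untreated and no treated count but was not among the genes tested. Lsr, a tricellular junction protein, had 1 untreated count in all and 12.5, 18.6 and 18.3 CPM treated (adjusted p = 0.0125), and Aoc3, an amine oxidase, had no untreated count and 12.8, 13.9 and 5.66 CPM treated, a log2 fold change of at least 5.87. Krt19, a keratin of simple epithelia, rose from 0.344, 0 and 0.154 CPM to 28.9, 29.8 and 20.2 CPM (adjusted p = 0.0192). Krt18, another such keratin, went from 2.61, 4.18 and 0.539 CPM to 58.9, 69.5 and 14.0 CPM (adjusted p = 0.0403). Cdh1, E-cadherin, had 0.550, 5.22 and 0.731 CPM and 1.09, 15.5 and 0 CPM and was not called. Myo3a, Olfr720, Fcgbp, Gm8251, Gm5134 and BC025920 were the other protein-coding genes among the largest rises, and Rnu1a1 and Gm44064 the noncoding ones. All of these calls ended with 1 library left out: for Gm5134, Aoc3, Lsr, Myo3a, Olfr720, Fcgbp, Krt19, Gm8251, BC025920, Rnu1a1, Gm44064 and Krt18 without any 1 untreated library (Krt18 also without treated library 1 or 2, Gm8251 also without treated library 1 or 3, Olfr720 also without treated library 2 or 3 and Fcgbp also without treated library 3), at adjusted p 0.0532 to 0.200. Krt18 stood at 4.87 without untreated library 2 (4.28 with all).

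The median log2 fold change was 1.30 for 259 lincRNAs (13 higher, 4 lower), 0.99 for 228 antisense genes (10 and 1) and -0.15 for 12468 protein-coding genes (232 and 686). Together lincRNA, antisense and unclassified transcripts took 1.64% ± 0.219 (SD, n = 3) of untreated and 2.92% ± 0.254 of treated counts. Gm10800, a gene model of satellite-like repeats annotated as protein-coding, went from 256, 178 and 529 CPM to 5648, 2873 and 6893 CPM (adjusted p = 0.00524) and was among the 10 most abundant of the treated group. In the set of 13 such genes 9 were called higher and 0 lower, beside 2.00% and 4.95% of all genes. Gm10715 and Gm10720 were not among the genes tested, and Gm10721 and Gm17535 were not called. The 13 share 36.2% to 94.4% of their 31-base stretches with another of the set, so reads may be shared and the single values are uncertain. Gm10800 and Gm10722 held throughout. Leaving out 1 library ended those of Gm26870 without untreated library 2, Gm21738, Gm11168, Gm10717 and Gm10801 without untreated library 1 or 2 and Gm10719 and Gm10718 without any 1 untreated library, at adjusted p 0.0504 to 0.120. Gm21738 stood at 4.95 without untreated library 3 (4.26 with all), Gm11168 at 4.67 without untreated library 3 (4.08), Gm10717 at 4.72 without untreated library 3 (3.98), Gm10801 at 5.00 without untreated library 3 (4.33) and Gm10719 at 4.79 without treated library 3 (5.46). Malat1, an abundant nuclear noncoding RNA, was at 10469.9, 9395 and 12899 CPM and 8083, 12927 and 12932 CPM and was not called.

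Across protein-coding genes the change and the share called varied with level and transcript structure. With genes in 5 classes of like size, the median log2 fold change went from -0.01 in the class of shortest exon length to -0.27 in the longest, and from 0.00 in genes of 1 to 5 exons to -0.32 in genes of 19 or more. By GC content it went from 0.02 in the lowest class to -0.31 in the highest. The share called higher went from 3.01% in the class of fewest exons to 0.737% in that of most, and the share called lower from 4.84% to 7.80%. By mean level, 0.482% of the lowest class were called higher and 3.13% lower, against 5.22% and 12.2% of the highest class, genes at 94.6 CPM or more. Shares in lists of abundant genes therefore stand against a higher share than the 2.00% and 4.95% of all genes. The called falls had a median of -2.73. Other motifs were counted on both strands of the same 250 bases, among list members with a RefSeq promoter. The heat shock element core GAANNTTC was before 2 of 3 members called higher and 6 of all 18 (4.88% of all promoters). Those 2 were the near-identical Hspa1a and Hspa1b. The ATF4 element TTGCATCA was before 2 of 7 and 5 of 25 (0.523%), and the hypoxia element ACGTG before 2 of 5 and 12 of 27 (22.0%). The p53 motif was before 2 of 5 and 8 of 17 (5.93%), and the antioxidant element TGACNNNGC before 0 of 2 and 5 of 19 (12.1%). Whether a motif goes with a rise was not tested.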

How the data were processed

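The 3 treated and 3 untreated libraries of the Mettl3 knockout were compared, with the 3 controls of the line as background. The labels' protocols name poly(A) selection with oligo(dT) beads and a stranded total RNA kit, SMARTer version 2. The submitters' processing notes name CASAVA, Trimmomatic 0.38, HISAT2 2.1.0, HTSeq and the mm10 build. What was deposited is 1 raw count per gene and library, from whole numbers in the files. Neither the annotation used for counting nor its strand option is stated in these sources; symbols and coordinates come from GENCODE mouse release M21, to which 54409 of 54446 identifiers matched. Totals ranged from 3395675 to 32540164 counts, and the floor of 3 counts per library covers counting error only.

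The 6 libraries were modelled gene by gene by edgeR 4.0.16 (R 4.3.3) after filterByExpr, with TMM factors, the quasi-likelihood test and Benjamini-Hochberg adjustment over all genes tested. The fit was tested on simulated data, where it missed most of the changes put in. Where a group had no count, changes are bounds from the floor. Named genes are the targets of GSK-J4 with Mettl3, Mettl14, Ezh1 and Ezh2; the 15 largest called rises and falls of protein-coding genes; the up to 4 members of each list whose p was smallest; the 10 most abundant genes of each group; and genes with no treated count. Other list members were named after their values were seen, and the paragraphs select from these. Members, lists and tests were chosen with earlier results of these data known. Alternatives were DESeq2 1.42.0, limma 3.58.1 voom with quality weights, and RLE, upper-quartile and total-count scaling. Others were no filter, fits of 9 and 18 libraries, a minimum log2 change of 1, a replicate block, thinning to equal depth and each library left out. A setting without mitochondrial, satellite-like and rRNA-overlapping genes was chosen after seeing the data. Some called genes are not reported here. Promoters come from RefSeq.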

Additional observations from a re-analysis of the deposited data

How the results depend on the processing

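As reported, 977 genes were called, 281 higher and 696 lower. DESeq2 called 2478 (1042 higher, 1436 lower), voom 1814 (690 and 1124), no low-count filter 1912 (656 and 1256), the fit of 9 libraries 2186 (664 and 1522), the fit of 18 libraries 3373 (914 and 2459) and a log2 change of at least 1 called 298 (47 and 251). The count of rises alone was 454 with upper-quartile factors, 648 with total counts and 480 after thinning. Leaving out 1 library at a time gave 129 to 1411 calls, 19 to 379 higher and 110 to 1095 lower. The difference in mitochondrial share, -2.20 percentage points, stayed between -2.26 and -2.10. Same-numbered libraries did not pair: correlations of their deviations were 0.0146, -0.0186 and -0.0335, and no sample number is said to mark a shared culture. With the replicate number as a block 697 genes were called, 149 higher and 548 lower, and 609 of the 977 calls were kept. The cause of these shifts was not tested, except that leaving out libraries or adding them changes the number of samples.

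Of 4795 values of named genes under the alternatives, 3910 kept their direction and side of the threshold, 670 lost the call, 190 gained it and 25 changed sign, all in genes that were not called. Ezh1 (0.18) stood at -0.051 with the block and -0.65 to 0.55 with 1 library left out. Hspa8 (0.18) stood at -0.058 to 0.26 with 1 library left out. Kdm6b (0.00746) stood at -0.00438 with voom and -0.18 to 0.23 with 1 library left out. Mettl3 (-0.26) stood at 0.017 with total counts and -0.96 to 0.16 with 1 library left out. Kdm5c (-0.38) stood at -0.74 to 0.044 with 1 library left out. Kdm6a (-0.077) stood at 0.087 with voom, 0.063 with upper-quartile factors, 0.19 with total counts and -0.37 to 0.24 with 1 library left out. Kdm5d (-0.046) stood at 0.037 with DESeq2, 0.036 with RLE factors, 0.10 with upper-quartile factors, 0.23 with total counts, 0.000474 with the fit of 9 libraries and -1.42 to 0.41 with 1 library left out. Depth limits low genes most: 3 counts stand for 0.338 to 0.818 CPM in the treated libraries.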
